A study of Mus musculus with 4 samples.

Results

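The cells described here are stromal cells of mouse brown adipose tissue (BAT) that a rule named committed preadipocytes. In them the summed level of 4 basement membrane and matricellular transcripts, Col15a1, Col4a1, Col4a2 and Sparcl1, exceeded the marker sums of other stromal classes. Among 28887 cells that passed quality control, 10189 were stromal and 4677 of these met the rule, with 367 in the WT library, 2225 in the db/db 8w library, 1035 in the db/db 16w library and 1050 in the HFD library. A cell was counted as stromal when Col1a1, Col1a2, Col3a1, Dcn and Gsn together made up at least 60 of every 10,000 unique molecular identifiers (UMIs, each 1 captured transcript) and when it stayed under set limits for macrophage, endothelial and Has1 Ptx3 Tnfaip6 transcripts. It was counted as a committed Col15a1 Col4a1 preadipocyte when the 4 marker genes summed to at least 10 per 10,000 UMIs and when that sum exceeded both the sum of Pi16, Dpp4, Sbsn and Igfbp6, which mark interstitial progenitors, and the sum of Cilp, Eln, Apod, Hmcn2 and Inmt, which mark a second fibroblast class. The cells were thus chosen by the measured levels of these genes, which are given only as a description.

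Single cells of the stromal vascular fraction (SVF), the tissue that remains when floating adipocytes have been removed, were profiled with a droplet 3′ kit. The WT library came from C57BL6/J mice of 10 weeks, the db/db 8w and db/db 16w libraries came from mice homozygous for the db mutation of the leptin receptor, aged 8 and 16 weeks, and the HFD library came from C57BL6/J mice fed a high-fat diet. Each library pooled 3 mice, so every group is 1 library and the differences below have no replicate check and no test. The WT mice matched neither db/db group in age, so that genotype and age cannot be told apart, and the HFD mice carry an age label of 10 weeks although the study's methods start the diet at that age. Every cell of the db/db mice lacks functional leptin receptor signalling, not only the preadipocytes.

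Basement membranes are thin sheets of type IV collagen, laminin, nidogen and perlecan that surround each mature adipocyte and each capillary, and collagen XV anchors them to the looser matrix outside. In adipose tissue, Pi16 Dpp4 progenitors lie at the base of a lineage in which committed preadipocytes acquire Pparg, fatty acid handling genes and the collagens of the adipocyte's own basement membrane before they fill with lipid. Collagen IV is built from trimers of chains encoded by gene pairs that lie head to head, and Col4a1 with Col4a2 is the pair expressed in nearly all tissues.

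Col4a1 (GRCm38 chr8:11198423-11312826, minus strand) and Col4a2 (chr8:11312805-11449287, plus strand) share their start region. The 30 bases of chromosome 8 printed next, on the plus strand of RefSeq's GRCm38.p6 sequence from 11312801 to 11312830, are shown because 2 of the 4 genes of the rule begin inside them in opposite directions, and the capitals mark the 22 bases that both annotated transcripts contain.
Col4a1 and Col4a2 start region: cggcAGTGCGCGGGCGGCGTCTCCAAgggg
The kidney and lens pair, Col4a3 and Col4a4, is arranged in the same way on chromosome 1, with start sites separated by 71 bases. Col15a1 lies at chr4:47208161-47313167 on the plus strand and Sparcl1, a secreted relative of Sparc, at chr5:104079111-104113733 on the minus strand.

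The share of stromal cells that met the rule was 12% in WT (95% exact binomial interval 10.9 to 13.2). It was 46.9% (45.5 to 48.3) in db/db 8w, 91.8% (90.0 to 93.3) at 16w and 83.3% (81.2 to 85.4) in HFD. All 3 libraries of obese mice lay above WT, by 34.9 points (33.0 to 36.7), 79.8 points (77.6 to 81.7) and 71.3 points (68.8 to 73.6). All intervals here and below cover counting error only and not the difference between mice. Because the classes compete for the highest sum, a share among stromal cells also moves with the other classes. The Pi16 progenitors made up 73.6% of stromal cells in WT, 35.5% in db/db 8w, 2.75% at 16w and 11.1% in HFD. As a share of all cells that passed quality control, the committed preadipocytes were 6.17% in WT, 19.1% in db/db 8w, 17.7% at 16w and 19.2% in HFD, so that the gap to WT was 12.9, 11.6 and 13.0 points. On this second scale the 3 libraries of obese mice lay close together. The stromal cells as a whole were 51.4% of all cells in WT against 40.7%, 19.3% and 23.1%. With the marker sum of at least 10 as the only requirement, whatever the other sums were, the shares of stromal cells were 28.1%, 68.1%, 97.3% and 90.6%, a choice made after the data were seen.

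**Figure D1:**
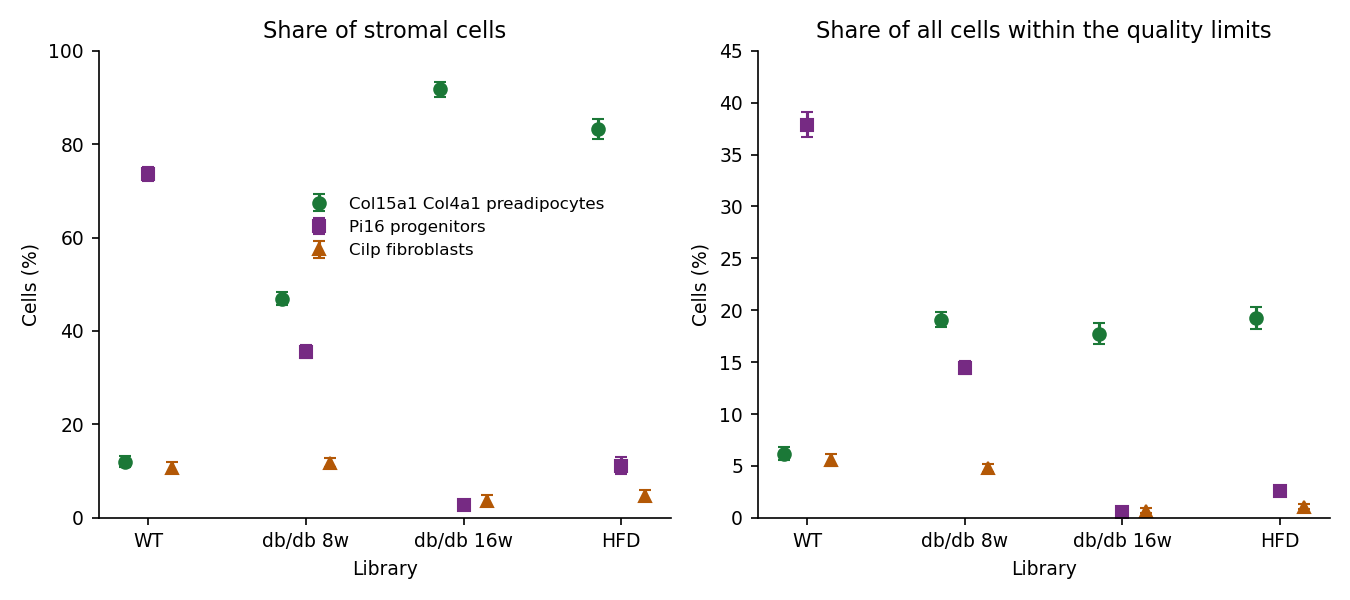
Shares of the committed Col15a1 Col4a1 preadipocytes (circles), Pi16 progenitors (squares) and Cilp fibroblasts (triangles) in each library, as a percentage of stromal cells (left) and of all cells that passed quality control (right), with 95% exact binomial intervals for counting error. The preadipocyte share of stromal cells runs from 12% in WT to 91.8% in db/db 16w, while the share of all cells is between 17.7% and 19.2% in the 3 libraries of obese mice.

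The libraries differed in quality in ways that touch these shares. Of the barcodes in each file, 71.5% passed quality control in WT, 63.6% in db/db 8w, 89.5% at 16w and 31.3% in HFD, and 68.5% of HFD barcodes exceeded the 15% mitochondrial limit against 1.04% in db/db 16w. The committed preadipocytes had a median of 6520, 3928, 2863 and 5104 UMIs in WT, db/db at 8w and 16w, and HFD, and their summed UMIs ranged from 2749194 in WT to 10747542 in db/db 8w. Between 7 and 25 cell barcodes that passed quality control were shared by any pair of libraries, and among the committed preadipocytes at most 1. Xist, the transcript that silences the second X chromosome of females, stood at 0 CPM in the WT members, 0.558 in db/db 8w, 442 at 16w and 0.517 in HFD, although the study describes its mice as male. The part that sex or animal origin plays in the differences of the db/db 16w library was not tested.

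CPM is the count of a gene per 1000000 UMIs summed over the committed preadipocytes of a library, and a log2 ratio is taken after 10 CPM was added to both values, which understates the ratio of weakly expressed genes. From here on 4 values in a row belong to WT, db/db at 8w and 16w, and HFD in that order, and 3 log2 ratios in a row to db/db at 8w and 16w, and HFD against WT. These 3 ratios share the WT library. The 3′ kit reads 1 end of each transcript, so CPM is not divided by gene length.

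Col4a1 was the most abundant of the 4 genes of the rule, at 3463, 4041, 3253 and 3482 CPM, and Col4a2 stood at 1287, 1946, 2093 and 1634 CPM. Col15a1 was 387, 817, 977 and 949 CPM and Sparcl1 was 619, 1609, 2541 and 2014 CPM, with the lowest value of both genes in WT. The make-up of the marker sum thus differed between libraries. Col4a1 alone was the highest of the 4 in 90.7% of the members in WT, 76.0% in db/db 8w, 41.6% at 16w and 71.1% in HFD. Sparcl1 alone was the highest in 1.09%, 8.58%, 38.9% and 20.2%. Most members carried UMIs of all 4 genes, from 60.8% of them in WT to 89.1% in HFD. Near the limit of 10 per 10,000, 2, 10, 3 and 1 members had a sum under 12. Among stromal cells in which the marker sum was the highest, 2, 8, 1 and 2 had a sum from 8 to under 10. The limit itself mattered less than the comparison of sums, since 493, 1006, 63 and 92 stromal cells reached 10 but had a higher or equal progenitor or Cilp sum. Of these, 22, 144, 12 and 8 were ties.

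The label was compared with genes outside the rule. Pdgfra, the receptor that marks adipose progenitors and fibroblasts, was detected in 83.1%, 77.1%, 72.9% and 60.7% of members after each cell was thinned to 2000 UMIs, against 0.150% to 3.15% of non-stromal cells. The stromal limit of the rule already parts members from non-stromal cells. The pooled non-stromal cells differed in make-up between libraries. Those past only the endothelial limit, called endothelial here, were 12 of 1512 in WT and 71 of 3868 in db/db 8w. They were 1411 of 4574 at 16w and 1299 of 3681 in HFD. Among the Pi16 progenitors Pdgfra was detected in 67.2% in WT, 60.1% in db/db 8w and 75.0% of 16 cells in db/db 16w. Pdgfra thus marks stromal cells of both classes. In WT and db/db 8w it was seen in a larger share of the members than of the progenitors. Lpl, the lipase that releases fatty acids from lipoproteins, was at 3863, 3673, 3308 and 3757 CPM in the members and at 882, 346, 314 and 489 CPM in the Pi16 progenitors. Pparg, the master regulator of adipocyte differentiation, was at 24.0, 32.7, 36.3 and 49.8 CPM, against 3.51, 7.74, 0 and 14.3 CPM in the progenitors, and it was seen in 5.07% to 9.39% of thinned members. The list of 22 adipogenic regulators did not follow Pparg. It summed to 3492, 2999, 2356 and 3238 CPM in the members, against 3986, 3707, 2890 and 3814 CPM in the progenitors. Its median log2 ratio of members to progenitors was −0.06, −0.09, −0.13 and 0.08. Zfp423 stood at 7.64, 7.91, 8.17 and 9.82 CPM and Dlk1, the preadipocyte factor that blocks adipogenesis, at no more than 3.32 CPM. "Committed" is used here as the name of the rule.

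Some genes outside the rule stood above both other stromal classes in all 4 libraries. Of those with at least 30 CPM in the members and a level above the non-stromal cells, 124 did so at any ratio, and because the rule compared these same cells this is a description. Col5a3, a minor fibrillar collagen, was at 1026, 1483, 1026 and 1024 CPM in the members, at 102, 321, 286 and 263 CPM in the progenitors and at 230, 445, 302 and 420 CPM in the Cilp class. Col6a3, a beaded filament collagen whose cleaved end is the adipokine endotrophin, was at 1794, 2922, 3616 and 2283 CPM, against 318, 379, 709 and 262 CPM in the progenitors. Col18a1, the basement membrane collagen that yields endostatin, was among the 15 with the highest ratios, as were Adam12, Adam23, Bmper, Plod1 and Lpl. On the opposite side Fn1, fibronectin, was at 410, 513, 443 and 611 CPM in the members and at 2604, 3655, 3721 and 3957 CPM in the progenitors. Col14a1, Pcolce2, Sfrp2 and Sfrp4 were also below both classes in every library. Among these genes, collagen V and VI chains and a lipase were above the progenitors and fibronectin was below them. They were picked for lying on 1 side in every library, so their likeness between obese and lean mice follows from that choice. Of all genes with at least 20 CPM in either class, 2.91%, 3.52%, 13.3% and 5.61% were at least 2-fold higher in members than in progenitors. The shares at least 2-fold lower were 4.21%, 4.82%, 13.9% and 5.92%.

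Across all genes, the committed preadipocytes of db/db 8w had 2.76% of 6303 genes at least 2-fold higher than WT and 1.17% at least 2-fold lower. For db/db 16w these shares were 11.8% and 7.57% of 6509 genes, and for HFD 7.27% and 2.94% of 6562 genes. The median log2 ratio of all genes was 0.07, 0.03 and 0.12. The HFD ratios below should be read against that shift of 0.12. Genes entered with at least 20 CPM in either library of a comparison, and "called" below means past 2-fold. The counts called in every list below should be read against these shares over all genes.

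The basement membrane genes outside the rule included members past 2-fold on both sides of WT. Of 17 genes, 13 passed the level, and 1 was called higher and 2 lower in db/db 8w, 1 and 2 at 16w, and 0 and 3 in HFD, against 2.76%, 11.8% and 7.27% higher and 1.17%, 7.57% and 2.94% lower over all genes. The median log2 ratio of the list was −0.10, −0.08 and −0.15. The list's summed CPM gave log2 ratios of −0.14, −0.01 and −0.13. Sparc, the collagen-binding protein that dominates this list, was at 12136, 10490, 11795 and 10936 CPM, and Nid1, which links laminin to collagen IV, was at 1412, 1450, 1376 and 1649 CPM. Neither gene passed 2-fold in any obese library. Col18a1 was at 115, 297, 536 and 238 CPM, lowest in WT, with log2 ratios of 1.29, 2.12 and 0.98.

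The second collagen IV pair was lower in the obese libraries. Col4a3 was at 109, 46.8, 1.53 and 45.6 CPM and Col4a4 at 240, 91.5, 3.83 and 134 CPM, both highest in WT and lowest in db/db 16w. The log2 ratios were −1.07, −3.37 and −1.10 for Col4a3 and −1.30, −4.18 and −0.80 for Col4a4. These are the genes whose start sites lie 71 bases apart. Col4a1 and Col4a2 cannot be set against them, because their levels chose the cells.

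Under the rule for named genes, 550 genes lay above WT in all 3 obese libraries at any ratio and 1055 lay below it. These counts cannot be set against each other, because their filters differed. Higher genes needed 30 CPM and a level above the non-stromal cells in all 3 obese libraries, and lower genes needed both only in WT. Past 2-fold, more genes were higher than lower in each obese library, as given above. Mgp, the matrix Gla protein that inhibits calcification, was at 98.9, 861, 1115 and 1960 CPM, lowest in WT and highest in HFD, with log2 ratios of 3.0, 3.37 and 4.18. Timp1, an inhibitor of matrix metalloproteinases, was at 27.6, 222, 272 and 321 CPM, also lowest in WT, with log2 ratios of 2.62, 2.90 and 3.13. Fbln7, a fibulin, was at 20.7, 135, 136 and 204 CPM. Mgp was not particular to these cells, because the Cilp class held 274, 2393, 3489 and 2839 CPM.

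Tnc (chr4:63959785-64047015, minus strand) encodes tenascin C, a matrix glycoprotein of wound and tumour stroma, and it was not detected in the WT members. It was at 35.1, 174 and 57.9 CPM in db/db at 8w and 16w, and HFD, which is at least 32.1-fold, 160-fold and 53.0-fold higher than the 1.09 CPM that 3 UMIs would have given in WT. Col8a1 (chr16:57624258-57754737, minus strand), a short-chain collagen of vessel walls, was at 0.364 CPM in WT, which was 1 UMI, and at 31.9, 91.2 and 130 CPM in the others. Its log2 ratio without any added CPM was 6.46 (95% conditional interval 3.97 to 11.8), 7.97 (5.48 to 13.3) and 8.48 (6.0 to 13.8). Postn, periostin, a collagen cross-linking protein of fibrotic matrix, was at 244, 896, 2174 and 987 CPM and Aspn, asporin, at 172, 429, 532 and 476 CPM. Tnc and Postn were highest in db/db 16w, and Col8a1 was highest in HFD.

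The other genes of this set had mixed roles. Cdh11, the cadherin of mesenchymal cells, was at 24.4, 87.6, 73.3 and 120 CPM, Mdk, the growth factor midkine, at 26.2, 109, 106 and 150 CPM, and Lbh, a Wnt-responsive transcription cofactor, at 9.46, 34.5, 99.3 and 58.6 CPM. Ndufa4l2, a hypoxia-induced mitochondrial protein, was at 16.0, 78.0, 169 and 119 CPM. Each was lowest in WT. Spcs1, a subunit of the signal peptidase, was at 56.4, 152, 283 and 165 CPM, and non-stromal cells showed a like order at 72, 120, 280 and 143 CPM.

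**Figure D2:**
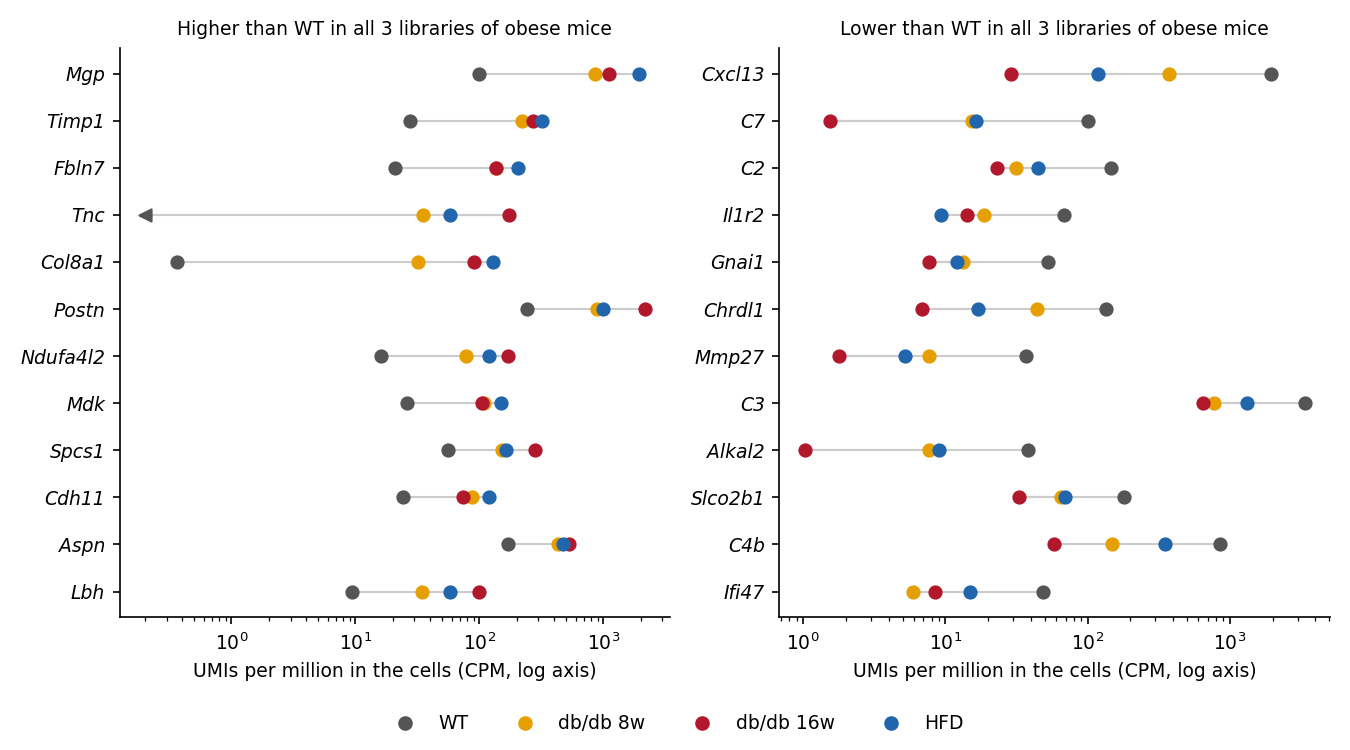
CPM in the committed preadipocytes of each library on a log axis for the 12 genes with the largest smallest ratio above WT and the 12 below WT, 1 point per library, with a triangle at the edge for Tnc in WT, where no UMI was seen. Grey lines span the 4 libraries. The 3 libraries of obese mice lie on 1 side of WT for every gene because the rule for naming them asked for it, and Tnc, Col8a1 and Cxcl13 span the widest ranges.

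Matricellular proteins and small proteoglycans as a list had 5 genes called higher and 0 lower of 16 in db/db 8w, 6 and 4 of 16 at 16w, and 8 and 1 of 17 in HFD, out of 18 genes. The list's median was 0.33, −0.21 and 0.70, and its summed CPM gave 0.36, 0.70 and 0.86, so the median and the sum have opposite signs in db/db 16w. That median was 0.0062 with cells that carried a mural UMI left out and 0.029 with no filter on low values. Tnc, Postn, Aspn and Thbs1 were called higher in all 3. Thbs1, thrombospondin 1, an activator of latent TGF-beta, was at 42.6, 172, 114 and 202 CPM. Bgn, the proteoglycan biglycan, was at 827, 1494, 2765 and 2736 CPM. Fmod, fibromodulin, was highest in HFD, at 0.364, 8.00, 12.8 and 78.2 CPM, and Ccn2, a TGF-beta and mechanical response gene, stood at 12, 60.4, 16.1 and 36.9 CPM. In db/db 16w Tnxb, Ccn1, Ccn5 and Omd were the 4 called lower.

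Among the other collagens, 2 of 11 genes were called higher and 0 lower in db/db 8w, 4 and 2 at 16w, and 1 and 0 in HFD, of 12 on the list, with medians of 0.48, 0.53 and 0.22. Col8a1, given above, was called higher in all 3. The type VI chain Col6a1 was at 1577, 2468, 3678 and 1918 CPM and Col6a2 at 1005, 2100, 2716 and 1642 CPM. Together with Col6a3, given above, these chains were lowest in WT and highest in db/db 16w. Another type VI chain, Col6a6, went the other way, at 30.9, 35.1, 8.17 and 24.3 CPM with db/db 16w lowest, and it was called lower there with a log2 ratio of −1.17. Col14a1, which decorates fibril surfaces, was at 350, 348, 143 and 243 CPM and was the other of the 2 called lower in db/db 16w.

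Genes that process collagen or build elastic fibres had 2 of 22 called higher and 0 lower in db/db 8w, 3 and 2 at 16w, and 2 and 3 in HFD, with medians of 0.26, 0.18 and 0.29. In db/db 16w these counts lay near the shares over all genes, 11.8% higher and 7.57% lower. Mfap4 and Mfap5, microfibril components, were the 2 called in every obese library. Mfap5 was at 491, 1425, 1537 and 1029 CPM, and the progenitors held more of it, at 1378, 4077, 2726 and 3149 CPM. Matrix proteases and their inhibitors had 2 called higher and 0 lower in db/db 8w, 4 and 2 at 16w, and 2 and 0 in HFD, of 14, 15 and 14 genes that passed the level, with medians of 0.33, −0.04 and 0.65. Timp1 was the gene called in all 3, while Timp2, the more abundant inhibitor, was at 2019, 1630, 1073 and 1137 CPM, highest in WT.

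The lipid uptake and storage list turned on fatty acid binding proteins. Of 22 genes, 15, 14 and 16 passed the level, and 4 were called higher and 0 lower in db/db 8w, 4 and 1 at 16w, and 5 and 1 in HFD. The median log2 ratio was 0.07, 0.20 and 0.69 and the summed CPM gave 0.41, 0.93 and 0.73. Fabp4 (chr3:10204088-10208576, minus strand), the fatty acid chaperone of adipocytes, macrophages and capillary endothelium, was at 1339, 3874, 8903 and 5691 CPM, with log2 ratios of 1.53, 2.72 and 2.08. Without Fabp4 the summed list gave 0.03, −0.03 and 0.22, so this single gene set the list's sum. Fabp5, its epidermal relative, was at 8.73, 82.5, 241 and 182 CPM.

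Other lipid genes differed less. Scd1, the desaturase that makes oleate, was at 23.6, 59.6, 124 and 114 CPM, lowest in WT. Plin2, a lipid droplet coat protein, was at 224, 344, 515 and 411 CPM, also lowest in WT, and was called only in db/db 16w, with log2 ratios of 0.59, 1.16 and 0.85. Cd36, the fatty acid translocase, was at 507, 352, 530 and 848 CPM, with db/db 8w lowest. Lpl, given above, was within 0.22 of WT on the log2 scale in all 3. Apoe was at 537, 1238, 806 and 1453 CPM. The non-stromal cells of the same libraries held Apoe at 11404, 9173, 2686 and 4150 CPM, and the make-up of that pool differed between libraries.

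Fabp4 was also higher than in WT in the progenitors and in the pooled non-stromal cells of each obese library. In the non-stromal cells it was at 184, 2096, 7904 and 14448 CPM, and in the Pi16 progenitors at 24.9, 245, 1295 and 2592 CPM. The non-stromal pool held more endothelial cells in db/db 16w and HFD, as given above. The lipid list summed to 43246, 45816, 85367 and 50004 CPM in endothelial cells and to 15422, 19138, 14594 and 20058 CPM in macrophages. How far this make-up set the pooled Fabp4 level was not tested. With each cell thinned to 2000 UMIs, Fabp4 was seen in 56.3%, 81.3%, 94.4% and 96.5% of members, in 4.31%, 21.1%, 31.2% and 87.6% of progenitors and in 16.1%, 52.9%, 57.5% and 95.6% of non-stromal cells. The members were above the progenitors in every library, by the least in HFD, and the db/db 16w progenitors numbered 16 cells. How much of the Fabp4 in the members came from RNA outside them was not tested.

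**Figure D3:**
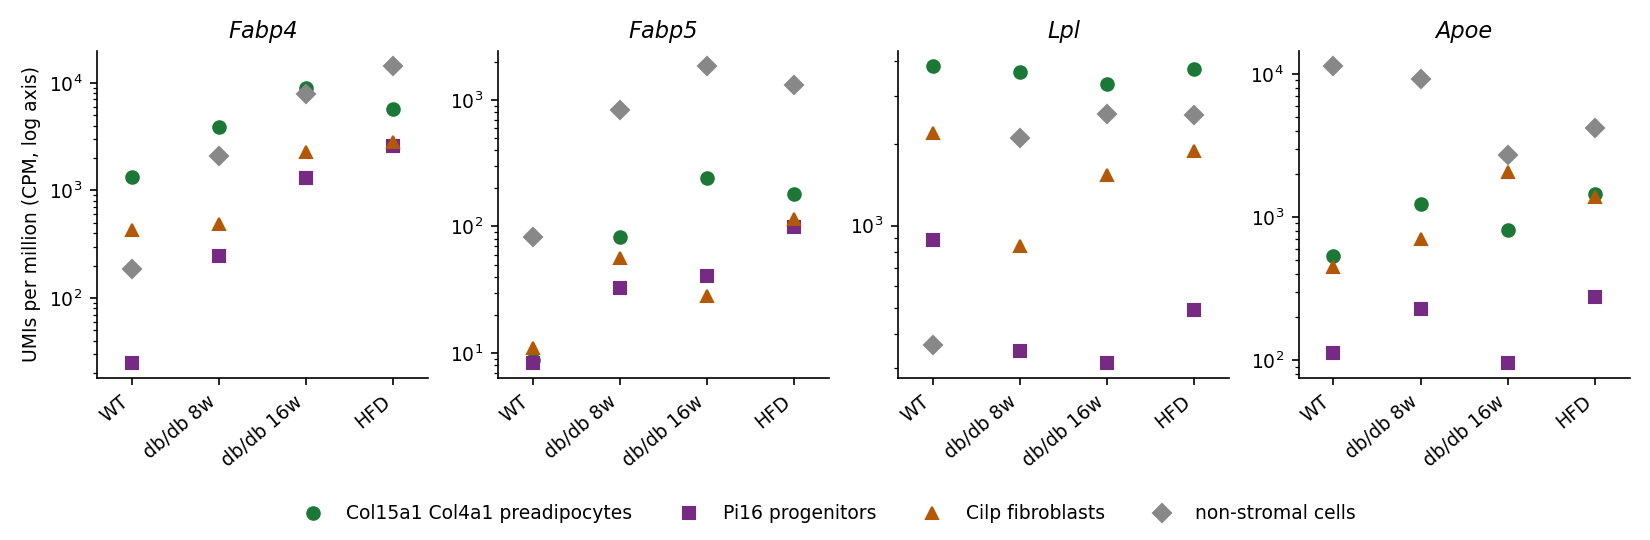
CPM of Fabp4, Fabp5, Lpl and Apoe on log axes that differ between panels, in the committed preadipocytes (circles), Pi16 progenitors (squares), Cilp fibroblasts (triangles) and non-stromal cells (diamonds) of each library. In the preadipocytes Fabp4 and Fabp5 are lowest in WT and highest in db/db 16w, at 8903 and 241 CPM, while Lpl lies between 3308 and 3863 CPM.

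Adipogenic regulators did not rank with the lipid genes. Of 22 on the list 15 passed the level, and 0 were called higher in any library. In db/db 16w 3 were called lower, Cebpb, Klf4 and Stat5b, and in HFD 1 was, Ebf1. The medians were −0.25, −0.57 and −0.32. Cebpa, the partner of Pparg, was at 45.1, 32.6, 18.9 and 26.7 CPM, highest in WT, and Ebf1, an early B cell factor required for adipogenesis, was at 948, 638, 618 and 451 CPM, likewise highest in WT. Pparg itself was lowest in WT, with log2 ratios of 0.33, 0.44 and 0.81. Klf4 was at 675, 606, 239 and 1213 CPM, on opposite sides of WT in db/db 16w and HFD.

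Genes of the mature brown adipocyte were near 0 in most members. Of the 12 on the list 1, 1 and 4 passed the level, and 3 were called higher in HFD, namely Ucp1, Cox8b and Cox7a1. Ucp1, the uncoupling protein of brown fat, was at 0.364, 0.837, 0.255 and 31.5 CPM, and Cox8b was at 4.36, 8.19, 7.92 and 59.1 CPM. The non-stromal cells of the HFD library held 72 CPM of Ucp1 and 98.7 CPM of Cox8b, both above the members, and the source of these transcripts was not tested.

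Cxcl13 (chr5:95956951-95961068, plus strand), the chemokine that attracts B cells, ranked first among the genes lower in all 3 obese libraries. It was at 1939, 375, 28.9 and 118 CPM in the members, highest in WT by far, with log2 ratios of −2.34, −5.65 and −3.93. The progenitors gave 1437, 118, 27.3 and 163 CPM and the Cilp class 1671, 345, 236 and 63.6 CPM, so the pattern was common to all 3 stromal classes. Non-stromal cells held at most 39.2 CPM.

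The other genes lower in every obese library had diverse products. Il1r2, the decoy receptor of interleukin 1, was at 68.7, 18.7, 14.3 and 9.30 CPM, and Chrdl1, a BMP antagonist, was at 134, 44.0, 6.89 and 17.1 CPM. Mmp27, a matrix metalloproteinase, was at 36.7, 7.72, 1.79 and 5.17 CPM, Alkal2, a ligand of the ALK receptor, at 37.8, 7.72, 1.02 and 8.96 CPM, and Slco2b1, an organic anion transporter, at 180, 65.3, 32.9 and 69.1 CPM. WT was highest for each, and all but Il1r2 were lowest in db/db 16w. Ifi47, an interferon-inducible GTPase, was at 48.7, 5.95, 8.43 and 15 CPM.

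No complement gene was called higher in an obese library. Of 12 genes 9 passed the level, and 0 were called higher while 5, 6 and 3 were called lower in db/db at 8w and 16w, and HFD. The median was −1.36, −1.77 and −0.43 and the summed CPM gave −1.39, −1.66 and −0.61. C3, the central component, was at 3367, 769, 645 and 1318 CPM, with log2 ratios of −2.12, −2.37 and −1.35. C4b was at 854, 148, 57.7 and 353 CPM and C7, a part of the membrane attack complex, at 100, 15.4, 1.53 and 16.4 CPM. C2, which is not on that list, was at 147, 31.4, 23.0 and 44.8 CPM. WT was highest for each of these, and HFD lay between WT and db/db for C3 and C4b.

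In the progenitors C3 stood at 4193, 2019, 736 and 1904 CPM, also highest in WT. The summed complement genes of the Pi16 class were 8917, 5228, 3776 and 6572 CPM, against 7586, 2891, 2395 and 4961 CPM in the members. Both classes were thus lower in obese libraries, and the members held less than the progenitors in each. C1s2 and C1rb were at 304, 156, 83.7 and 0.689 CPM and at 230, 99.9, 50.0 and 0.689 CPM. Each has a near-identical neighbour, C1s1 at 538, 323, 317 and 786 CPM and C1ra at 395, 147, 117 and 262 CPM, and the division of reads between such copies is uncertain.

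Interferon-inducible and MHC class I genes were lower as well. All 14 passed the level, 0 were called higher, and 7, 8 and 1 were called lower, with medians of −1.02, −1.11 and −0.39. B2m, the shared light chain of MHC class I, was at 1792, 711, 822 and 1320 CPM, H2-K1 at 1145, 483, 668 and 852 CPM and Ifi27l2a at 1102, 245, 108 and 310 CPM. WT was highest in all 3 genes. The non-stromal cells showed the same order for their highest library, with B2m at 3063, 1157, 992 and 1270 CPM, and the summed list in them was 10846, 4804, 3702 and 4220 CPM.

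The chemokine and cytokine list was split. Of 20 genes 13, 13 and 14 passed the level, and 4 were called higher and 3 lower in db/db 8w, 3 and 3 at 16w, and 6 and 2 in HFD. Its median was 0.51, 0.39 and 0.51 while its summed CPM gave −0.62, −0.68 and −0.61, the opposite sign in all 3, with Cxcl13 giving 1939 of the 3854 CPM in WT. The sign of the median was not stable. It was −0.0036 in db/db 8w and −0.057 in db/db 16w with cells thinned to 2000 UMIs, and −0.45 in db/db 16w with cells that carried a mural UMI left out, where 1 gene was called higher and 4 lower. Ccl2, which recruits monocytes, was at 48.7, 157, 159 and 95.1 CPM, lowest in WT, and non-stromal cells held 1311, 1107, 618 and 69.3 CPM. Cxcl12, which retains leukocytes and progenitors through CXCR4, was at 482, 155, 183 and 232 CPM, highest in WT. Cxcl14 was at 242, 350, 360 and 677 CPM, highest in HFD, and the progenitors held at most 39.9 CPM.

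Signalling genes differed gene by gene. In the TGF-beta and BMP list 18 of 24 passed the level, and 1 was called higher and 1 lower in db/db 8w, 1 and 3 at 16w, and 3 and 1 in HFD, with medians of 0.02, 0.16 and 0.30. The list's summed CPM gave −0.14, −0.23 and −0.11, the opposite sign in all 3. Tgfb1, the main isoform, was at 17.8, 33.0, 53.1 and 53.9 CPM, lowest in WT, and non-stromal cells held 163, 191, 185 and 237 CPM. Bmp4, which commits progenitors to the adipocyte lineage, was at 41.5, 13.5, 16.6 and 17.9 CPM, highest in WT. Among growth factors and receptors 0, 1 and 0 were called higher and 3, 5 and 5 lower, of 20, 21 and 20 that passed the level among 31, with medians of −0.29, −0.47 and −0.45. The summed CPM of these genes gave 0.07, −0.04 and −0.65, the opposite sign in db/db 8w. Over all genes 2.76%, 11.8% and 7.27% were called higher and 1.17%, 7.57% and 2.94% lower.

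Fgf7 was the growth factor called lower in all 3, at 124, 53.1, 13.3 and 43.8 CPM. Fgf10, which acts on preadipocytes, was at 81.1, 28.3, 17.1 and 43.4 CPM, and Vegfd was at 82.6, 32.2, 28.3 and 49.6 CPM, both highest in WT. Igfbp3 and Igfbp5, carriers of insulin-like growth factors, were instead lowest in HFD, at 846, 1343, 758 and 31.7 CPM and at 1652, 2250, 1454 and 495 CPM. The Wnt list had 10 of 15 that passed the level, 0 called higher in any library, and 0, 4 and 3 called lower, with medians of −0.55, −0.48 and −0.63.

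Genes of retinoic acid turnover differed between the obese libraries. Aldh1a1, which oxidises retinaldehyde to retinoic acid, was at 83.3, 80.6, 130 and 77.5 CPM, highest in db/db 16w and with log2 ratios of −0.04, 0.59 and −0.09. Cyp26b1, which degrades retinoic acid, was at 83.7, 117, 265 and 50.1 CPM, with db/db 16w and HFD on opposite sides of WT.

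Hormone and stress responses separated the libraries from each other. Glucocorticoid targets had 1 called higher and 0 lower of 10 in db/db 8w, 4 and 1 at 16w, and 1 and 3 in HFD, with medians of 0.13, −0.09 and −0.66. Their summed CPM gave 0.39, 0.95 and −0.50, the opposite sign in db/db 16w. Mt1, a metallothionein, was at 854, 1179, 3061 and 444 CPM, and Sgk1 at 80.8, 177, 220 and 219 CPM. Immediate-early and heat shock genes had 0 called in db/db 8w, 0 higher and 12 lower of 16 at 16w, and 2 and 5 in HFD, with medians of −0.05, −1.33 and −0.18. Egr1 was at 1823, 1542, 674 and 3661 CPM, lowest in db/db 16w and highest in HFD. Hspa1b, which has a near-identical copy in Hspa1a, was at 2525, 1994, 978 and 58.9 CPM and at 5120, 1973, 960 and 115 CPM in non-stromal cells. Such genes are known to respond to tissue dissociation, and the part that cell preparation played was not tested.

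Between the 2 db/db libraries, 2.67% of 6332 genes were at least 2-fold higher in db/db 16w and 3.52% at least 2-fold lower, with a median of −0.02. Acta2, smooth muscle actin, was at 0, 10.2, 123 and 12.1 CPM, Notch3 at 4.36, 26.6, 118 and 56.0 CPM and Tagln at 1.46, 4.09, 84.3 and 20.7 CPM. All 3 are genes of mural cells, the pericytes and smooth muscle cells around vessels, and all were highest in db/db 16w. The 11 mural markers summed to 23.3, 52.4, 448 and 243 CPM in the members, and 0, 2, 43 and 15 members carried at least 20 per 10,000. With every cell that carried a UMI of Rgs5, Kcnj8, Abcc9 or Notch3 left out, the db/db 16w ratio to WT was 2.30 for Acta2 instead of 3.73 and 1.41 for Tagln instead of 3.04. For Tnc it was 2.88 instead of 4.20 and for Fabp4 2.16 instead of 2.72. This setting left out 33, 239, 283 and 452 members, of which 0, 0, 27 and 10 carried at least 20 per 10,000 of these genes. In db/db 16w 257 members carried a Notch3 UMI.

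Some genes of the db/db 16w library had a like order of levels in the members and in the pooled non-stromal cells. Snhg9 was at 6.91, 5.95, 120 and 7.58 CPM in the members and at 6.65, 5.24, 78.4 and 6.21 CPM in non-stromal cells. Neat1 was at 781, 669, 118 and 585 CPM in the members and at 1306, 568, 101 and 1045 CPM in non-stromal cells. Lgals1, galectin 1, was at 432, 1560, 2965 and 1144 CPM in the members and at 491, 1360, 3888 and 1137 CPM in non-stromal cells. Snhg9 and Neat1 stood apart in db/db 16w in both sets of cells, whereas Lgals1 was above WT in all 3 obese libraries, and how these differences arose was not tested.

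RNA of other cell types in the members was measured with lists of markers. The 11 macrophage markers summed to 109, 392, 518 and 763 CPM, and 1, 257, 31 and 31 members carried at least 20 per 10,000, with 6, 7 and 7 of the markers called higher in db/db at 8w and 16w, and HFD. A UMI of any macrophage marker was seen in 53.1%, 61.6%, 19.4% and 90.5% of members. Without the 31 members of db/db 16w with a high sum, the median of the list there was −0.070 instead of 1.76. That filter used the sum of these same 11 markers, so a fall of their summed level was built in. The 12 endothelial markers summed to 250.98, 293, 328 and 550 CPM. Of these, 0 were called higher in either db/db library and 6 of the 8 that passed the level in HFD, and 0.272%, 2.65%, 3.48% and 31.8% of members carried a UMI of Cdh5, Cldn5 or Gpihbp1. Schwann cell markers gave 57.5, 33.8, 35.5 and 71.0 CPM, and mesothelial, muscle progenitor and T cell markers stayed at or under 15 CPM in every library. Spp1, osteopontin, a gene of lipid-associated macrophages, was at 0, 10.8, 86.3 and 18.3 CPM in the members and at 1206 CPM in the non-stromal cells of db/db 16w. With members of a macrophage sum of at least 20 left out, Tnc kept a log2 ratio of 2.19, 4.28 and 2.79 and Fabp4 one of 1.54, 2.79 and 2.08.

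The members were not uniform. The 1692, 431 and 747 members of db/db at 8w and 16w, and HFD in which Col4a1 was the highest of the 4 markers were set beside the 191, 403 and 212 in which Sparcl1 was. This division was chosen after the data were seen, uses genes of the rule, and has no test, and WT had 4 members of the second kind. The Sparcl1 cells had fewer UMIs, with medians of 3108 against 4730, 2498 against 4013 and 4738 against 5389. Of 3835 genes, 3 were at least 2-fold higher in the Col4a1 cells of all 3 libraries, namely Tnc, Timp1 and Cthrc1, and 0 were at least 2-fold higher in the Sparcl1 cells of all 3.

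Tnc was at 39.2, 277 and 72.9 CPM in the Col4a1 cells and at 4.25, 25.1 and 12.4 CPM in the Sparcl1 cells of db/db at 8w and 16w, and HFD. Timp1 was at 236, 380 and 387 CPM against 73.7, 111 and 122 CPM. Cthrc1, a secreted collagen triple helix protein of activated fibroblasts, was at 129, 204 and 33.1 CPM against 28.3, 56.9 and 10.5 CPM. These 3 genes, all above WT in the obese libraries, were thus lower where Sparcl1 led. Mdk, midkine, also above WT, was higher where Sparcl1 led. Apoe was on the other side, at 1126, 489 and 1163 CPM against 2363, 1297 and 2322 CPM. Fst, follistatin, the activin antagonist, was likewise lower in the Col4a1 cells, at 486, 267 and 314 CPM against 913, 632 and 591 CPM. Macrophage markers summed to 332 CPM in the Col4a1 cells and 699 CPM in the Sparcl1 cells of db/db 8w, but to 639 against 327 CPM at 16w and 791 against 746 CPM in HFD. Mural markers summed to 52.1 against 70.9 CPM in db/db 8w, 622 against 188 CPM at 16w and 248 against 222 CPM in HFD. The part that mural RNA played in these differences was not tested.

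**Figure D4:**
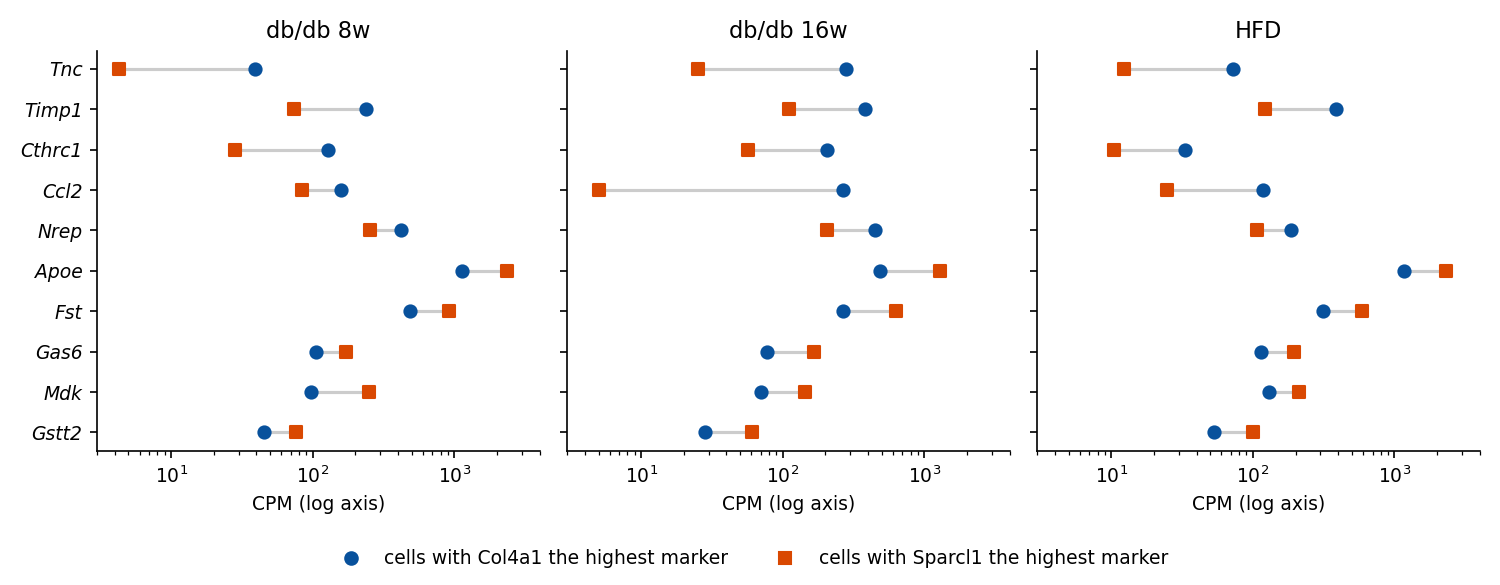
CPM of 10 genes, on a log axis, in the members in which Col4a1 (circles) or Sparcl1 (squares) was the highest of the 4 markers, in db/db at 8w and 16w, and HFD. Tnc, Timp1 and Cthrc1 are at least 2-fold higher in the Col4a1 cells of each library, and Apoe and Fst lie on the Sparcl1 side in each.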

How the data were processed

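Droplet 3′ single-cell libraries of the BAT SVF, 1 per group, were aligned to mm10 by the authors and deposited as counts, that is raw UMIs per gene and barcode. The file headers name Cell Ranger 6.0.0 and the submitters' processing notes 7.1.0. No normalised values were used. Cells with 251 to 5999 genes, 501 to 29999 UMIs and under 15% mitochondrial UMIs were kept. Stromal cells had at least 60 per 10,000 UMIs of the stromal genes, under 20 of Lyz2, C1qa, C1qb and C1qc, under 20 of Cdh5, Cldn5 and Gpihbp1 and under 5 of Has1, Ptx3 and Tnfaip6. Ties for the highest sum were not counted. The deposited libraries held 28504069 to 61828295 UMIs in 6517 to 18306 barcodes.

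Counts were summed over the members of each library and scaled to CPM. Ratios were taken on the log2(CPM + 10) scale for genes of at least 20 CPM in either library, and a ratio past 2-fold was called. With 1 library per group no statistical test was run. Exact Poisson, Clopper-Pearson and conditional binomial intervals at 95% cover counting error only, and a gene at 0 was given the limit of 3 counts. Doublets were predicted with Scrublet in scanpy 1.11.5, in 7.37%, 15.4%, 5.57% and 14.2% of the cells of WT, db/db at 8w and 16w, and HFD, and were removed only as an alternative. Thinning to 2000 UMIs left out 672, 4301, 2327 and 165 cells. Python 3.11.15, numpy 2.4.6, scipy 1.17.1 and pandas 2.3.3 were used, and the calculations were tested on simulated data. Gene positions are those of GRCm38.

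Members and gene lists were chosen with earlier results of these data known. Ranked genes left out the genes of the rule, ribosomal, mitochondrial and sex-linked genes and those higher in non-stromal cells. They were the 12 highest and 12 lowest in all 3 obese libraries by their smallest ratio. The 5 highest and 5 lowest of each comparison among genes of at least 50 CPM and 20 UMIs were added. So were the 15 highest and 8 lowest against both other stromal classes. The 4 most abundant of each list, with any gene past 2-fold in all 3 comparisons, were named whatever their level in non-stromal cells. Other list genes, Xist, and the genes in which the Col4a1 and Sparcl1 cells differed were named after their values were seen. The alternatives were another scaling, added CPM, filter, threshold, doublet and contaminant settings.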

Additional observations from a re-analysis of the deposited data

Results flagged for a closer look

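Among the genes named, 4 lay at least 2-fold above WT in one obese library and at least 2-fold below it in another. Cxcl9, an interferon-induced chemokine, had a log2 ratio of 1.39 in db/db 16w and −1.49 in db/db 8w. The immediate-early genes Egr1 and Fosb were above WT in HFD, at 1.0 and 2.51, and below it in db/db 16w, at −1.42 and −1.38. Mt2, a metallothionein, was at 1.69 in db/db 16w and −1.28 in HFD. With 1 library per group the difference was not tested for any of them. For Cxcl9 the db/db 16w ratio was −0.45 once cells with a mural UMI had been left out.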

How the results depend on the processing

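The share of committed preadipocytes among stromal cells stayed lowest in WT and highest in db/db 16w under every alternative, and its values moved as follows. With each cell thinned to 2000 UMIs it was 49.0% in db/db 8w and 94.3% in db/db 16w. With a marker sum of at least 20 it was 10.9% in WT and 45.1% in db/db 8w. With a mitochondrial limit of 30% it was 44.3% in db/db 8w and 77.9% in HFD. With Sparcl1 left out of the marker sum it was 44.0%, 85.3% and 79.4% in db/db at 8w and 16w, and HFD, and with cells that carried a mural UMI left out 44.9%, 90.0% and 79.8%. The next settings were added after the data were seen. Counting tied cells gave 49.9% in db/db 8w, and a marker sum of at least 10 alone gave 28.1%, 68.1%, 97.3% and 90.6% in WT, db/db at 8w and 16w, and HFD.

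The log2 ratio of the summed basement membrane genes was near 0 in db/db 16w and its sign there depended on the setting. In db/db at 8w and 16w, and HFD it was −0.19, 0.048 and −0.044 for the mean of the cells, −0.21, −0.080 and −0.25 with a median of ratios scaling, −0.10, 0.10 and −0.087 after thinning, and −0.12, 0.040 and −0.11 without members of a high macrophage sum. It was 0.044 in db/db 16w and −0.086 in HFD without predicted doublets, −0.094 in HFD without any endothelial UMI, −0.16 in db/db 8w and −0.17 in HFD with a marker sum of at least 20, and −0.12 in db/db 8w and −0.075 in HFD without mural UMIs.

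The ratio of the summed lipid genes remained above 0 in all but 1 setting. In db/db at 8w and 16w, and HFD it was 0.34, 0.86 and 0.62 with a median of ratios scaling, 0.38, 0.90 and 0.70 with a marker sum of at least 20, 0.30, 0.71 and 0.60 without mural UMIs, and 0.034, −0.027 and 0.22 without Fabp4, a setting chosen after the data were seen. In db/db 16w and HFD it was 0.87 and 0.79 for the mean of the cells, 0.89 and 0.77 after thinning, 0.88 and 0.58 without predicted doublets, and 0.88 and 0.54 without endothelial UMIs.

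Of 248 ratios of named genes past 2-fold, 236 stayed so with the other scaling, 214 after thinning and 238 without predicted doublets. Without members of a high macrophage sum 235 stayed so, and without mural UMIs 222 did. All stayed so with 1 CPM added, but that setting could not have changed the count. A smaller added value can only move a log2 ratio away from 0. Among ratios and medians past 2-fold, the signs that turned were all in db/db 16w. Cd74 was −1.63, Ctss −0.040 and Tyrobp −0.28 without members of a high macrophage sum, and Cd74 was −1.48 without doublets. The macrophage setting filters on the sum of markers that include these genes, so a fall of that sum was built in. Cxcl9 was −0.45 without mural UMIs. The median of the macrophage marker list was −0.070 without members of a high macrophage sum, and that of the Schwann list was 0.027 with no filter on low values. Medians nearer 0 turned too. The chemokine median was −0.0036 in db/db 8w and −0.057 in db/db 16w after thinning, and −0.45 in db/db 16w without mural UMIs. In db/db 16w the matricellular median was 0.0062 without mural UMIs and 0.029 with no filter, the protease median 0.13 after thinning, 0.16 without mural UMIs and 0.027 without doublets, the glucocorticoid median 0.043 after thinning and 0.13 without mural UMIs, and the basement membrane median 0.075 after thinning. The TGF-beta median in db/db 8w was −0.033 with the other scaling. The cause was not tested beyond the cells or genes each setting removed. No paired analysis was possible because each group is 1 library, and for the same reason no replicate could be left out.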

Other observations

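Atcayos, an antisense transcript, was at 0.364, 0.279, 0 and 84.8 CPM in the committed preadipocytes of WT, in db/db at 8w and 16w, and in HFD, and Fosb was at 287, 450, 104 and 1681 CPM. Lowest in db/db 16w, Abi3bp, a matrix protein that binds collagen, was at 564, 263, 64.9 and 170 CPM, and Gja1, the gap junction protein connexin 43, was at 144, 112, 15.8 and 108 CPM. Iigp1, an interferon-inducible GTPase, was at 200, 14.9, 27.6 and 175 CPM, lower in both db/db libraries and near WT in HFD. Cfb, complement factor B, was also lowest in the db/db libraries, at 219, 65.9, 53.6 and 160 CPM. Cx3cr1, the fractalkine receptor, was at 82.9, 38.7, 2.81 and 2.41 CPM, highest in WT.

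The progenitor class offers few cells for comparison in db/db 16w, with 31 Pi16 progenitors against 2252 in WT, so its values in that library carry wide counting error.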
